A study of Mus musculus with 13 samples.

Results

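The gene segments of the T cell receptor loci were described in pre-Tregs, the CD4 thymocytes that precede Foxp3-expressing regulatory T cells (Tregs). Members were all rows of the pre-Treg count table whose gene name begins with Tra, Trb, Trg or Trd followed by v, d, j or c and then a digit, a dash or the end of the name. The rule took 258 of 47729 genes: 128 Trav, 60 Traj and 1 Trac segment of the alpha locus, 35 Trbv, 2 Trbd, 14 Trbj and 2 Trbc segments of the beta locus, 6 Trdv, 2 Trdd, 2 Trdj and 1 Trdc segment of the delta locus, and 1 Trgv and 4 Trgj segments of the gamma locus. Most gamma V and C genes are named Tcrg in the table, fall outside the rule and are given only for comparison. The pre-Treg libraries came from the thymus of C57BL6/J mice and had the genotype cRel+/+Foxp3rfp (wild type, 2 libraries) or cRel-/-Foxp3rfp (3 libraries). Both genotypes thus carry the Foxp3rfp allele, a reporter of Foxp3. The cRel-/- genotype removes cRel, the NF-kB subunit encoded by Rel, and no label restricts it to a cell type. CD4 T cells were selected with magnetic beads and then sorted by flow cytometry. Age, sex and the number of animals behind each library are not given in the labels. The remaining 8 of the 13 libraries of the study, from later Tregs, are in tables with 0 matching rows and were not used.

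The question of the comparison was whether pre-Tregs that lack cRel use V, J and C segments differently from wild-type pre-Tregs. An alpha or beta chain is assembled in the thymus when the RAG1 and RAG2 recombinase joins 1 V segment to a J segment, with a D segment between them in beta and delta chains. The joined exon is spliced to a C segment, so each mature transcript holds a single V, J and C. The Trav segments recombine in repeated rounds that move outward through the Traj segments, and each round deletes the segments between its joints, including the delta locus that lies inside the alpha locus. Reads from V, J and C segments therefore report in part the chains that a pooled population transcribes. How reads that cover several segments were counted is not given in the sources used here. They also include transcripts of segments that have not rearranged.

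The J and D segments are short exons, and their sequences are shown because the read evidence for a J segment comes from so few bases. They are the GENCODE M21 transcript models of GRCm38, in which all 258 members had the coordinates of the table. Capitals mark a match to TTTGGNNNNGG or TTCGGNNNNGG on the sense strand. In frame, these bases encode the phenylalanine, glycine, any residue, glycine motif of J regions. The reading frame of the matches was not checked, so the counts below are of matching bases only. A match was found in 56 of 80 J segments (70.0%), among them 43 of 60 Traj, 11 of 14 Trbj, 2 of 2 Trdj and 0 of 4 Trgj, and in 1 of the 9 Traj pseudogenes. The Trbd and Trbj segments lie between chr6:41533201 and chr6:41543856, plus strand, and those shown are both D segments, the pair of J segments with the widest spread between libraries, a pair whose libraries did not overlap between genotypes, and a pseudogene.
Trbd1: gggacagggggc
Trbd2: gggactgggggggc
Trbj1-1: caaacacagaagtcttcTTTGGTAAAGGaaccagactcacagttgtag
Trbj1-2: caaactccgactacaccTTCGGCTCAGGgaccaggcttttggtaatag
Trbj2-2: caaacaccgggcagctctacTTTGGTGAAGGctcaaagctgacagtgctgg
Trbj2-4: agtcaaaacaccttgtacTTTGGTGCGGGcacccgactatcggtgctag
Trbj2-6: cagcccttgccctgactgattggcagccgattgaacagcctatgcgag
Of the Traj segments on chromosome 14, plus strand, the most used (Traj18, chr14:54200777-54200842, and Traj17, chr14:54201775-54201837), the J of the invariant mucosal-associated T cell chain (Traj33, chr14:54185358-54185414) and 3 with lower levels in each cRel-/- library (Traj24, chr14:54195638-54195700, Traj11, chr14:54207139-54207197, and Traj49, chr14:54168686-54168747) are shown.
Traj18: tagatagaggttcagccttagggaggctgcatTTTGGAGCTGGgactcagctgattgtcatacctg
Traj17: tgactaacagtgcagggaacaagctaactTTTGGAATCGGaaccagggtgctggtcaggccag
Traj33: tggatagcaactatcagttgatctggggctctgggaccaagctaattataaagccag
Traj24: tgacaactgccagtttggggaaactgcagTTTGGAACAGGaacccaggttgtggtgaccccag
Traj11: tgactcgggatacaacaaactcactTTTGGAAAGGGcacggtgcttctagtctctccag
Traj49: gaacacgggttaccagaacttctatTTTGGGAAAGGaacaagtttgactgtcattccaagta
The gamma J segments Trgj1 (chr13:19210343-19210402, plus strand) and Trgj2 (chr13:19311245-19311304, minus strand) were identical at 56 of 60 positions (93.3%), so reads of one could be placed on the other.
Trgj1: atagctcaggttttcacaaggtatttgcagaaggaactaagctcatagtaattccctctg
Trgj2: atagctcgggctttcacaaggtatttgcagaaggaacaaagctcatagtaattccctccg

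Values below are given in the order wild type 1 and 2, then cRel-/- 1, 2 and 3, and levels are in counts per 1000000 counts of the library (CPM). Rel stood at 104.6 and 102.7 CPM in wild type and 59.1, 51.9 and 68.5 CPM in cRel-/- libraries, so reads of the gene remained in the knockout and all 3 knockout libraries lay below wild type. Its log2 fold change was -0.80 (SE 0.18, adjusted p = 0.552). Library totals lay between 13656304 and 29866696 counts. In cRel-/- library 1 all 19440 nonzero counts were even (100%) and no gene had exactly 1 count, against 46.7% to 47.5% even values in the other 4 libraries. Its counts thus appear to have been doubled before deposit, CPM values are unaffected, and its intervals use halved counts (8066938 in total). The cRel-/- library 2 stood apart. Its chi-square per degree of freedom over genes was 86.1 and 75.4 against the other knockout libraries. Those had 19.2 between themselves, and the wild-type pair had 11.3. This statistic used the halved counts of cRel-/- library 1. It grows with depth, and cRel-/- library 2 had the most counts (29866696), so part of its distance may come from depth. Cd4 and Cd3e were abundant in every library (752.9 to 1019 CPM and 813.1 to 1004 CPM), as was Tnfrsf18 (244.1 to 612.1 CPM). Other genes of the same 8-gene identity list varied: Ikzf2 (Helios) had 432.8 and 601.2 CPM against 204.4, 110.2 and 172.2 CPM (adjusted p = 0.307), and Tnfrsf4 (OX40) had 749.5 and 929.5 CPM against 382.5, 654.7 and 528.0 CPM (adjusted p = 0.72), both without overlap. Il2ra, the CD25 chain, had 117.7 and 258.9 CPM against 326.9, 121.1 and 263.0 CPM, and Ctla4 lay between 76.3 and 114.0 CPM. Cd8a lay between 3.48 and 6.60 CPM, and Foxp3 had 32.8 and 104.5 CPM for wild type against 21.3, 48.8 and 47.4 CPM.

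The receptor segments together took 5478 and 4943 CPM in wild type and 5422, 4796 and 5260 CPM in cRel-/- pre-Tregs. The groups overlapped, with means of 5210 ± 379 (SD, n = 2) and 5159 ± 325 (SD, n = 3) and an exact permutation p = 0.8, adjusted p = 1.0 over 8 usage values tested. For 2 libraries against 3 the smallest two-sided p that such a test can give is 0.2. In bulk RNA, fewer cells with a segment and less RNA of it per cell cannot be told apart. No segment passed the test of genotype across all genes: edgeR called 0 of 167 members tested, with adjusted p between 0.72 and 0.995, beside 0 of 14746 genes tested (0%). At an unadjusted p under 0.05 there were 0 members, and 6.57% of all genes (3.61% higher and 2.96% lower in cRel-/-), and the smallest p of a member was 0.059 (Traj17). DESeq2 called 0 members and 88 genes (0.597%), and limma-voom called 0 of either. Of the 91 members not tested, 46 had 0 counts in every library and 45 had reads below the filter on low counts. The fitted log2 fold changes of the tested members had a median of -0.08, with 68 above 0 and 99 below, beside a median of 0.03 and 53.5% above 0 over all genes tested.

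**Figure D1:**
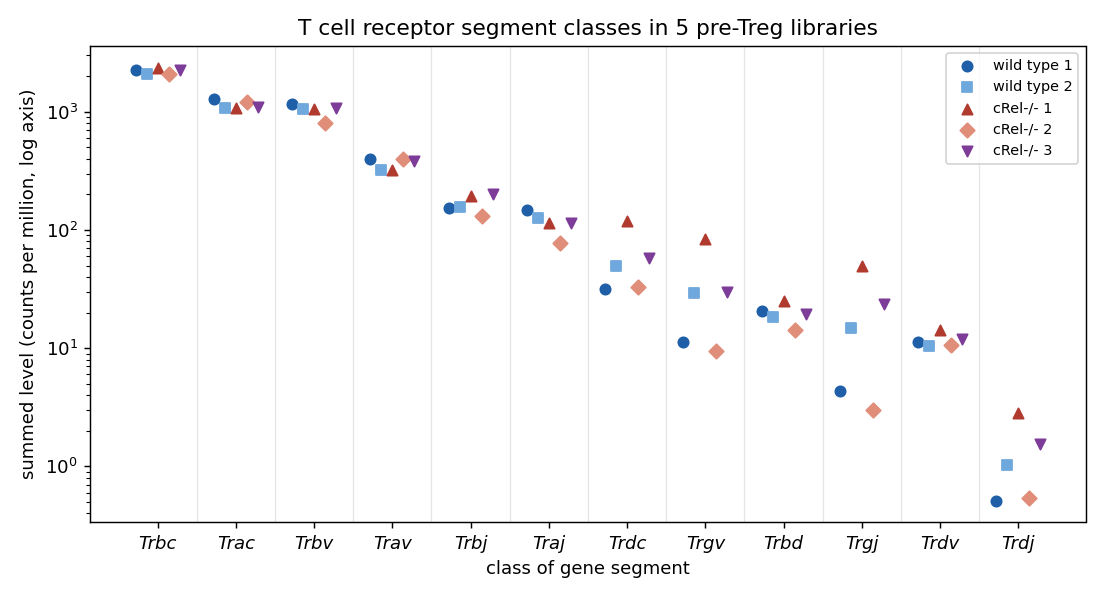
Summed level of each class of segment in CPM on a log axis, 1 point per library (circles and squares wild type, triangles and diamonds cRel-/-). The Traj points of the 3 cRel-/- libraries all lie below both wild-type points, whereas the gamma and delta classes are spread within each genotype.

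The constant segments carried most reads. Trac, the alpha constant region (chr14:54220521-54224206), had 1288 and 1074 CPM in wild type and 1073, 1203 and 1095 CPM in cRel-/- libraries. The knockout range fell almost within the wild-type range, and the log2 fold change was -0.08 (SE 0.19). The beta constant regions Trbc1 (chr6:41538218-41539881) and Trbc2 (chr6:41546730-41548352) follow the first and the second D and J cluster. Trbc1 had 846.3 and 784.2 CPM against 926.4, 823.3 and 859.6 CPM, and Trbc2 had 1400 and 1312 CPM against 1438, 1281 and 1397 CPM. Both overlapped between genotypes, with log2 fold changes of 0.08 (SE 0.16) and 0.01 (SE 0.16). Per kb of gene length the mean level over libraries was 1974 CPM for Trbc2, 1226 for Trac and 1132 for Trbc1.

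Trbc2 took 62.3% and 62.6% of beta constant counts in wild type and 60.8%, 60.9% and 61.9% in cRel-/- libraries. Each knockout library lay below both wild-type libraries, by 1.25 percentage points in the means (62.5 ± 0.193, n = 2, against 61.2 ± 0.609, n = 3). The exact permutation p was 0.2, the smallest this design allows, and 0.8 after adjustment. The 95% Wilson intervals of wild type 1 (61.8% to 62.9%) and cRel-/- 3 (61.4% to 62.4%) overlapped, and such intervals cover counting error only. The transcript models of Trbc1 and Trbc2 were identical at 81.7% of aligned positions, so reads from their near-identical coding exons could be split between them.

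The beta V segments lie between chr6:40891229 and chr6:41558452, the last of them, Trbv31, behind the constant regions. Trbv13-2, one of the V beta 8 segments, held the highest mean share of Trbv counts (11.4%). Its shares were 9.999% and 10.72% in wild type and 11.5%, 12.9% and 12.04% in cRel-/-, but its levels of 116.6 and 112.1 against 122.5, 104.3 and 128.3 CPM overlapped, with a log2 fold change of 0.04 (SE 0.17). It was followed by Trbv31 and Trbv3 (9.5% each), Trbv2 (8.4%) and Trbv19 (8.1%), and these 5 segments took 45.4% to 47.7% of Trbv counts in each library. Trbv31 had 112.4 and 94.8 CPM in wild type and 91.6, 86.6 and 100.2 CPM in cRel-/-. Trbv2 had 97.9 and 85.4 CPM against 91.9, 70.3 and 88.2 CPM, and Trbv19 had 93.8 and 85.9 CPM against 87.9, 58.4 and 92.0 CPM. All 3 overlapped between genotypes.

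Among the abundant beta segments, Trbv3 did not overlap between genotypes. It had 130.7 and 119.6 CPM in wild type and 113.1, 47.1 and 88.4 CPM in cRel-/- libraries. No knockout library reached the wild-type range, but 1 knockout library held less than the others by a wide margin, and the log2 fold change of -0.62 (SE 0.31) had an adjusted p of 0.72. Without cRel-/- library 2 it was -0.36 (adjusted p = 0.453). The less used Trbv26 had 19.3 and 20.2 CPM against 17.2, 6.40 and 12.1 CPM, in a like order of the knockout libraries, with a fitted log2 fold change of -0.76 (SE 0.37, adjusted p = 0.72), or -0.48 without cRel-/- library 2. Trbv3 and Trbv26 were the 2 of 23 tested Trbv segments whose libraries did not overlap, both lower (8.7%, beside 11.5% of all genes tested), and 17 of the 23 had a negative log2 fold change (median -0.17).

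The effective number of Trbv segments (the exponential of the Shannon entropy of their shares) was 16.4 and 16.5 in wild type and 16.6, 15.7 and 16.4 in cRel-/-, with an exact permutation p = 0.8. Between the wild-type libraries 3.26% of Trbv usage differed, counted as the part of the shares that would have to move to make the profiles equal. The cRel-/- libraries 1 and 3 differed from each wild-type library by 2.99% to 6%, whereas cRel-/- library 2 differed from the other 4 libraries by 8.58% to 12.1%. That library had 5.84% Trbv3, against 8.30% to 11.4% in the others, and 9.27% Trbv1, against 5.57% to 6.30%. Trbv counts per 100 Trbc counts were 51.9 and 49.8 in wild type and 44.9, 38.4 and 47.2 in cRel-/-, so fewer V reads accompanied each constant read in all 3 knockout libraries. The ratio was computed after the values were seen and was not tested.

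**Figure D2:**
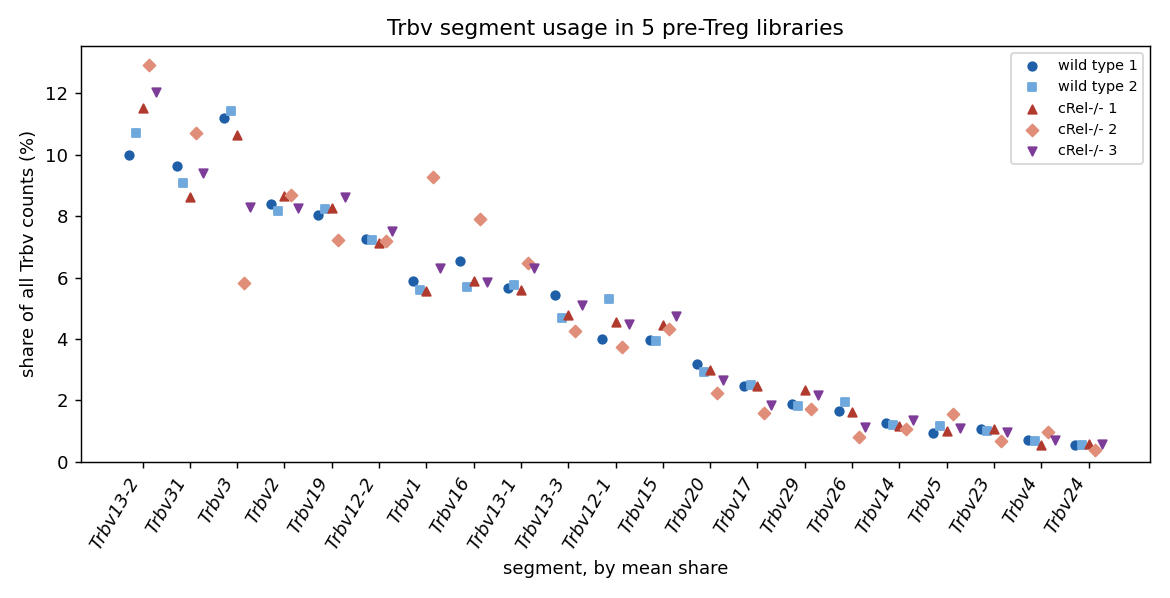
Share of all Trbv counts (percent) on each of the 21 most used Trbv segments, 1 point per library. Trbv3 is highest in both wild-type libraries and Trbv13-2 in the 3 cRel-/- libraries, and cRel-/- library 2 stands apart at Trbv3 (5.84%), Trbv1 (9.27%) and Trbv16 (7.90%).

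The median beta J segment had 230.8 CPM per kb over the 5 libraries, against 31.5 for Trbv, 23.2 for Traj and 1.75 for Trav. Trbd1 and Trbd2, of 12 and 14 bases, had 860.1 and 657.4 CPM per kb but together only 14.26 to 25.04 CPM. A read can be longer than such a segment, so values per kb of D and J segments are not comparable with those of the longer V segments. All 14 Trbj were tested, with mean shares of 3.33% (Trbj2-2) to 14.2% (Trbj1-1) and adjusted p of 0.72 to 0.98. Trbj1-1 and Trbj1-2, the first J segments behind Trbd1, varied most. Trbj1-1 had 20.1 and 20.9 CPM in wild type and 40.8, 8.54 and 33.7 CPM in cRel-/- libraries. Trbj1-2 had 18.67 and 20 CPM in wild type and 30.99, 11.05 and 26.59 CPM in cRel-/-. In both, knockout libraries 1 and 3 lay above wild type and knockout library 2 below it, and the log2 fold changes of 0.39 (SE 0.53) and 0.21 (SE 0.38) summarise values on either side. Without cRel-/- library 2 the log2 fold change of Trbj1-1 was 0.81, with an adjusted p of 0.0999, the smallest of any member under any alternative.

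The remaining 12 Trbj segments together had 113.4 and 114.9 CPM in wild type and 120.9, 111.9 and 140.0 CPM in cRel-/-, a narrower spread than that of the first pair. Trbj2-4, a J of the second cluster, had 5.13 and 5.18 CPM against 6.69, 6.76 and 8.27 CPM. Trbj2-2, of the same cluster, had 5.13 and 4.67 CPM against 5.21, 5.22 and 7.26 CPM. These were the 2 Trbj segments higher in every knockout library, with log2 fold changes of 0.48 (SE 0.30) and 0.26 (SE 0.33). Their 2 of 14 (14.3%) is close to the 15.3% of all genes that were higher without overlap. The pseudogene Trbj2-6, which has no match to the J motif, still had 7.18 and 7.37 CPM against 6.32, 6.09 and 8.51 CPM.

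The second cluster took 31.6% and 33.9% of Trbj counts in wild type and 29.2%, 43.9% and 33.8% in cRel-/- (exact permutation p = 1.0). The knockout libraries lay on both sides of wild type, and without cRel-/- library 2 the mean difference of 2.89 percentage points became -1.26. Leaving out Trbj1-1 and Trbj1-2, a step chosen after their values were seen, the shares were 42.4% and 45.9% against 46.6%, 51.6% and 48.3%. The D segments showed no common direction: Trbd1 had 10.98 and 10.15 CPM in wild type and 15, 5.42 and 10.05 CPM in cRel-/-. Trbd2 had 9.81 and 8.10 CPM against 10.04, 8.84 and 9.22 CPM.

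The summed level of the alpha J segments lay lower in each cRel-/- library than in either wild-type library, a difference that was not itself tested. The 60 Traj segments lie between chr14:54155005 and chr14:54218842, numbered from 61 next to the Trav segments down to 1 next to Trac, and together had 146.9 and 126.8 CPM for wild type against 113.4, 78.2 and 114.7 CPM in cRel-/- libraries. The group means were 136.8 ± 14.2 (SD, n = 2) and 102.1 ± 20.7 (SD, n = 3), with a mean of 114.1 for knockout libraries 1 and 3 alone. Of 50 Traj tested, 45 had a negative log2 fold change (median -0.40, beside 0.03 over all genes), and 16 were lower in every knockout library while 0 were higher in all. Over all genes tested, 11.5% were lower without overlap and 15.3% were higher, and over all tested members the counts were 24 (14.4%) and 10 (5.99%). With the fold set relative to the total of all receptor segments, 44 of 50 Traj were negative (median -0.38), and without cRel-/- library 2 the count was 35 of 47 (median -0.27). Without wild-type library 1 it was 40 of 53 (median -0.26). No Traj passed the test under any of these.

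The Traj reads were also fewer relative to the constant region. Traj counts per 100 Trac counts were 11.4 and 11.8 in wild type and 10.6, 6.50 and 10.5 in cRel-/- libraries. Trav counts per 100 Trac counts were 30.95 and 29.93 in wild type and 29.93, 33.3 and 35.09 in cRel-/-, where 2 knockout libraries lay above wild type. These ratios were computed after the class levels were seen and were not tested.

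**Figure D3:**
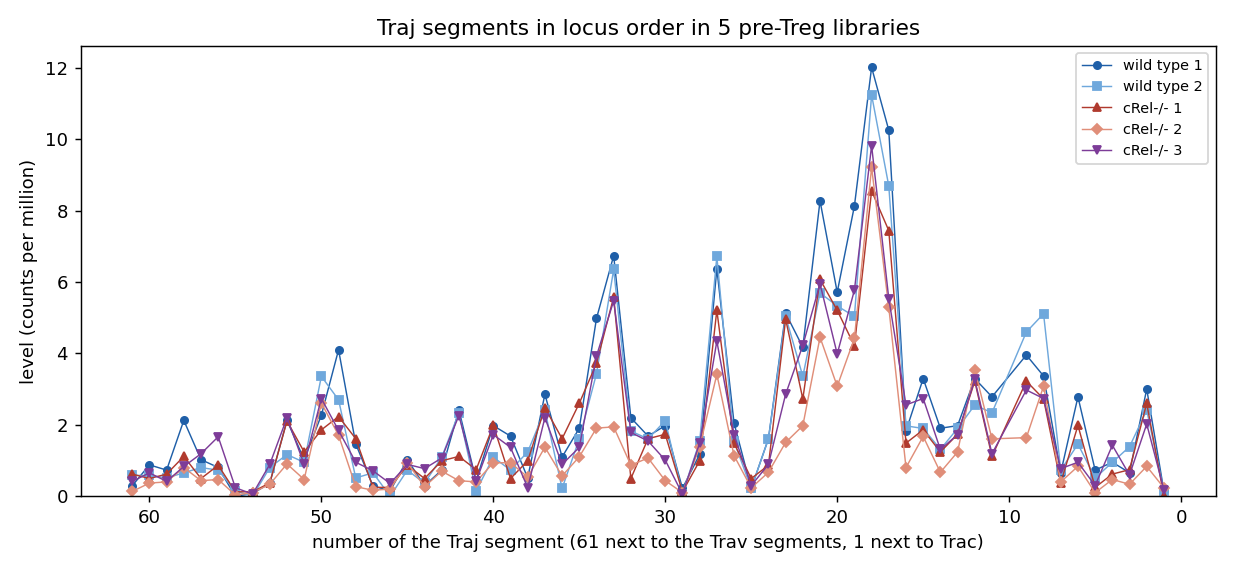
Level of each Traj segment in CPM, by segment number from the Trav side (left) to the Trac side (right), 1 line per library. Both wild-type lines reach above 11 CPM at Traj18, where the 3 cRel-/- libraries lie between 8.55 and 9.82 CPM.

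Traj18, the J segment of the invariant NKT cell alpha chain, was the most used Traj, with a mean share of 9.0% and 154 CPM per kb. It had 12.01 and 11.24 CPM in wild type and 8.55, 9.21 and 9.82 CPM in cRel-/- libraries. The libraries did not overlap, with a fitted log2 fold change of -0.34 (SE 0.26, adjusted p = 0.734). As a share of Traj counts it was 8.18% and 8.87% in wild type and 7.54%, 11.8% and 8.56% in cRel-/-, where the groups did overlap. Traj17 had 10.3 and 8.69 CPM against 7.44, 5.29 and 5.53 CPM and a fitted log2 fold change of -0.65 (SE 0.30, adjusted p = 0.72). Traj27 had 6.37 and 6.72 CPM against 5.21, 3.42 and 4.34 CPM, also without overlap. Traj21 had 8.28 and 5.69 CPM against 6.07, 4.45 and 5.95 CPM, and Traj19 had 8.13 and 5.04 CPM against 4.22, 4.42 and 5.77 CPM. The last 2 overlapped between genotypes, and the 5 most used Traj took 27.4% to 34.3% of Traj counts in each library.

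The Traj segments with the largest negative fold changes were rarer ones. Traj24 had 22 and 22 counts in wild type and 14, 20 and 15 counts in cRel-/- (the 14 being 7 once halved), that is 1.61 and 1.61 CPM against 0.868, 0.670 and 0.892 CPM, with a log2 fold change of -1.004 (SE 0.49). Traj11 had 2.78 and 2.34 CPM against 1.12, 1.61 and 1.19 CPM, with a log2 fold change of -0.96 (SE 0.45). Traj49 had 4.10 and 2.70 CPM against 2.23, 1.71 and 1.84 CPM, with a log2 fold change of -0.83 (SE 0.41). In these 3 the log2 fold change without cRel-/- library 2 was -0.91, -1.19 and -0.78. By contrast, in Traj30 (log2 fold change -1.001) and Traj23 (-0.75) the first knockout library lay close to wild type, with 1.74 CPM against 1.98 and 2.12 CPM, and with 4.96 CPM against 5.13 and 5.04 CPM. Traj42 (-0.95) and Traj32 (-0.95) were lower without overlap as well, the third knockout library reaching 2.26 CPM for Traj42 beside 2.42 and 2.34 CPM in wild type. Without cRel-/- library 2 the log2 fold changes were -0.62 for Traj30, -0.43 for Traj23, -0.53 for Traj42 and -0.85 for Traj32, and without cRel-/- library 1 they were -1.54, -1.24, -0.88 and -0.62. The adjusted p of these 7 Traj segments lay between 0.72 and 0.73.

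The share of the Traj segments nearest to Trac did not separate the genotypes. Segments 2 to 20, nearest to Trac, took 45.9% and 46.9% of the counts on segments 2 to 61 in wild type and 42.8%, 50.3% and 43.4% in cRel-/- (exact permutation p = 1.0). Segments 21 to 40 took 38.7% and 38.2% against 40.8%, 34.1% and 37.9%, with overlap. Segments 41 to 61, nearest to the Trav segments, took 15.4% and 14.9% against 16.4%, 15.6% and 18.8%. Each knockout library lay above both wild-type libraries there, a difference that was not tested. The 95% Wilson intervals of wild type 1 (13.9% to 17.1%) and cRel-/- 2 (14.2% to 17.1%) overlapped. With 915 to 2328 counts per library, the 95% Wilson interval of the share of segments 2 to 20 was at most 3.2 percentage points wide on either side. Such intervals cover counting error only. The knockout libraries had an SD of 4.2 points (n = 3) for this share, and the design allows no exact permutation p under 0.2. The difference in the means of -0.87 points turned positive without knockout library 1 (0.47) or 3 (0.21), and was -2.06 points for segments 2 to 30.

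Alpha V segments lie between chr14:52427928 and chr14:53977678, where the C57BL6 locus carries repeated copies named with d and n. Reads were found for 88 of 128 Trav, and 66 were tested, of which 35 had positive and 31 negative log2 fold changes (median 0.02). In 8 of them all knockout libraries lay above wild type and in 6 below, 12.1% and 9.09% of those tested. The effective number of Trav segments was 48.87 and 50.02 in wild type and 49.2, 48.8 and 48.6 in cRel-/- (exact permutation p = 0.4, adjusted p = 0.8). With the d and n copies merged it was 34.59 and 35.02 against 34.99, 32.2 and 33.7, a mean difference of -1.18 in place of -0.58, and the genotypes overlapped here too. The V segments nearest to the J side of the copies held 71.3% and 69.9% of Trav counts in wild type and 71.5%, 71.6% and 71.6% in cRel-/-. The 8 V segments on the far side of the copies held 7.42% and 8.52% against 7.99%, 4.80% and 6.58%.

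Trav14-1 held the highest mean share of Trav counts (6.74%). It had 28.1 and 20.5 CPM in wild type and 23.7, 25.0 and 25.5 CPM in cRel-/-. Trav14d-3-dv8, which can also join to delta segments, had 17.65 and 14.96 CPM against 15, 22.3 and 18.8 CPM. Trav3-3 had 18.7 and 13.6 CPM against 12.5, 19.4 and 17.4 CPM. In all 3 the genotypes overlapped, and the Trav14 family as a whole took 21.78% and 20.03% of Trav counts in wild type and 21.7%, 21.7% and 21.8% in cRel-/-. Trav14-2 had 18.9 and 11.5 CPM against 14.4, 16.0 and 17.2 CPM, also with overlap. Trav13-1, the fifth by share, had 12.3 and 11.6 CPM against 12.5, 15 and 14.1 CPM and was 1 of the 8 that were higher without overlap.

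Of those 8, Trav18 had the largest fold change on the fewest reads. It had 6 and 4 counts in wild type and 24, 18 and 16 in cRel-/- (the 24 being 12 once halved), or 0.439 and 0.292 CPM against 1.49, 0.603 and 0.952 CPM, with a fitted log2 fold change of 1.41 (SE 0.69, adjusted p = 0.72). Trav17 had 11.06 and 10.95 CPM against 11.5, 14.2 and 16.2 CPM and a log2 fold change of 0.34 (SE 0.27). Trav6-7-dv9 had 5.053 and 4.599 CPM against 7.31, 6.16 and 5.71 CPM and a log2 fold change of 0.40 (SE 0.31). The pseudogene Trav8-2 had 3.22 and 3.43 CPM against 3.84, 4.55 and 4.76 CPM. Trav9d-1 (log2 fold change 0.44) and Trav15-2-dv6-2 (0.29) also lay above wild type in every knockout library, at 1.61 to 1.84 CPM and 2.56 to 3.01 CPM. None of these passed the test, and the 15.3% of all genes that were higher without overlap is above the 12.1% for Trav.

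Whether a Trav segment had reads at all went with how much of its sequence it shared. Every stretch of 50 bases in each V transcript model was compared with all other members. The 40 Trav segments at 0 in all libraries had a median of 0% stretches found in no other member, and 31 of the 40 had none at all. The 88 Trav with reads had a median of 55.8%, and 8 of them had none. With 75 bases the medians were 0% and 72.6%. Most silent segments were in the copies: 17 of 39 d segments and 20 of 34 n segments were at 0, against 2 of 47 on the J side and 1 of 8 on the far side. How reads that fit several places were counted is not given in the sources used here, so 0 counts for such a segment do not show that it was unused. Ranks of Trav segments by share, their shares by position along the locus, and their effective number may be affected in the same way. With 50 bases, Trav14-1 had 95.1% unshared stretches, against 54.4% for Trav14-2 and 61.2% for Trav14d-3-dv8. Beta V segments differed: all 6 Trbv at 0 had 100% unshared stretches, and all 6 (Trbv7, Trbv8, Trbv9, Trbv11, Trbv27 and Trbv28) were pseudogenes.

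This limit falls on the V segment of the invariant NKT chain. Trav11 had 0 counts in all 5 libraries and its copy Trav11d had 0, 1, 0, 2 and 1, and their models were identical at 99.7% of positions with no unshared stretch of 50 bases. The third copy, Trav11n, was identical to Trav11 at 97.7%, had 78.6% unshared stretches and had 58 counts over the 5 libraries. Pairing of Traj18 with its usual V could therefore not be read from these counts. NKT marker genes were present at low level in both genotypes: Zbtb16 had 4.03 and 2.77 CPM for wild type against 7.19, 5.49 and 3.63 CPM, and Klrb1c had 3.44 and 3.14 CPM against 6.82, 7.50 and 5.95 CPM. Klrk1 had 6.01 and 3.21 CPM against 8.55, 7.23 and 6.37 CPM. Klrb1c and Klrk1 were higher in every cRel-/- library, as were 15.3% of all genes tested, and neither passed the test (adjusted p = 0.72 and 0.724). Of the 5 NKT markers, 3 had positive log2 fold changes. The summed level of all 5 was 228.5 to 246.5 CPM in wild type and 223.3 to 242.9 CPM in cRel-/-. Most of this sum was Cd1d1 and Slamf1, so it says little about the rarer markers. Their part in the Traj18 values was not tested. For the invariant chain of MAIT cells, Trav1 had 4.83 and 4.09 CPM against 5.58, 3.05 and 4.28 CPM, which overlapped. Traj33 had 6.74 and 6.35 CPM against 5.58, 1.94 and 5.47 CPM, without overlap, and a fitted log2 fold change of -0.63 (SE 0.46, adjusted p = 0.734), or -0.29 without cRel-/- library 2.

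**Figure D4:**
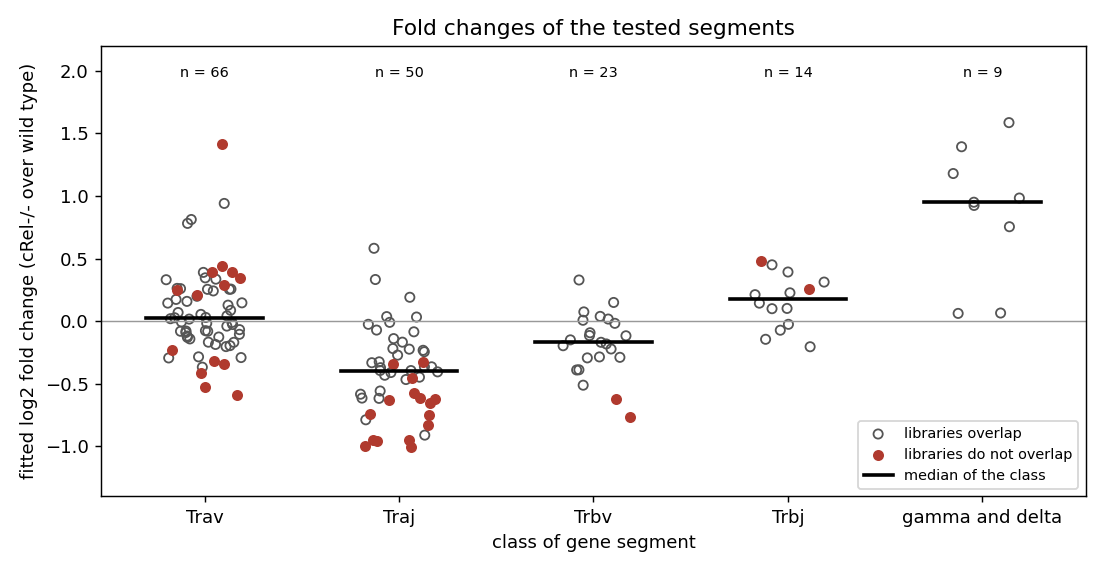
Fitted log2 fold change of cRel-/- over wild type for each tested V, J, gamma or delta segment, 1 point per segment, with the class median as a bar. Filled points are segments whose libraries do not overlap between genotypes, and the Traj median lies at -0.40.

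Segments marked as pseudogenes in GENCODE took 0.863% and 0.867% of V counts in wild type and 0.962%, 0.932% and 0.965% in cRel-/-. The 3 knockout libraries all lay above wild type by about 0.09 percentage points (exact permutation p = 0.2, adjusted p = 0.8). The part of Trav counts on pseudogenes followed this (1.73% and 1.89% against 2.24%, 2.01% and 2.01%), and that of Trbv counts did not (0.584% and 0.573% against 0.653%, 0.423% and 0.625%). Most beta pseudogene reads came from Trbv24, with 87.2% to 95.7% of them in each library. Traj pseudogenes took a larger part of Traj counts, with 5.98% and 7.14% in wild type and 7.21%, 7.24% and 6.43% in cRel-/-. Counts on a J segment are thus not all reads of functional chains.

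Gamma and delta segments were spread more between libraries than between genotypes. Delta transcripts mark gamma delta T cells and immature thymocytes, since alpha rearrangement deletes the delta locus, while gamma genes can stay rearranged in alpha beta T cells. Together these members took 1.09% and 2.13% of segment counts in wild type and 4.99%, 1.17% and 2.38% in cRel-/-, with an exact permutation p = 0.4 and adjusted p = 0.8. All 9 tested had positive log2 fold changes (median 0.95), but 0 of them separated the genotypes without overlap, and without cRel-/- library 1 the median was 0.20, with 6 of 9 positive. Trdc, the delta constant region (chr14:54142851-54148868), had 31.9 and 49.4 CPM in wild type and 119.4, 32.7 and 58.1 CPM in cRel-/-. Its log2 fold change was 0.75 (SE 0.47, adjusted p = 0.724), or 0.16 without cRel-/- library 1. Trgv2, the only gamma V with a member name, had 11.4 and 29.1 CPM against 84.1, 9.51 and 29.9 CPM.

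The gamma J segments repeated that order of libraries. Trgj1 had 1.98 and 7.01 CPM in wild type and 24.2, 1.00 and 11.5 CPM in cRel-/-, with a log2 fold change of 1.39 (SE 1.06), or 0.43 without cRel-/- library 1. Trgj2 had 1.32 and 4.38 CPM against 17.6, 1.07 and 7.91 CPM, and Trgj4 had 1.03 and 2.99 CPM against 7.31, 0.938 and 3.81 CPM. In each, cRel-/- libraries 1 and 3 were highest, then wild type 2, and wild type 1 and cRel-/- 2 were lowest. Trdj1, a delta J with 6 to 24 counts per library once the 40 counts of cRel-/- 1 are halved to 20, had 0.439 and 0.803 CPM against 2.48, 0.502 and 1.43 CPM, in nearly the same order. Trdv2-2, the most used delta V, did not share it, with 6.44 and 5.18 CPM against 6.94, 6.13 and 5.24 CPM. The gamma genes outside the rule behaved like Trgj: the Tcrg-C genes summed to 78.3 and 301.7 CPM in wild type and 878.9, 153.7 and 462.1 CPM in cRel-/-.

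**Figure D5:**
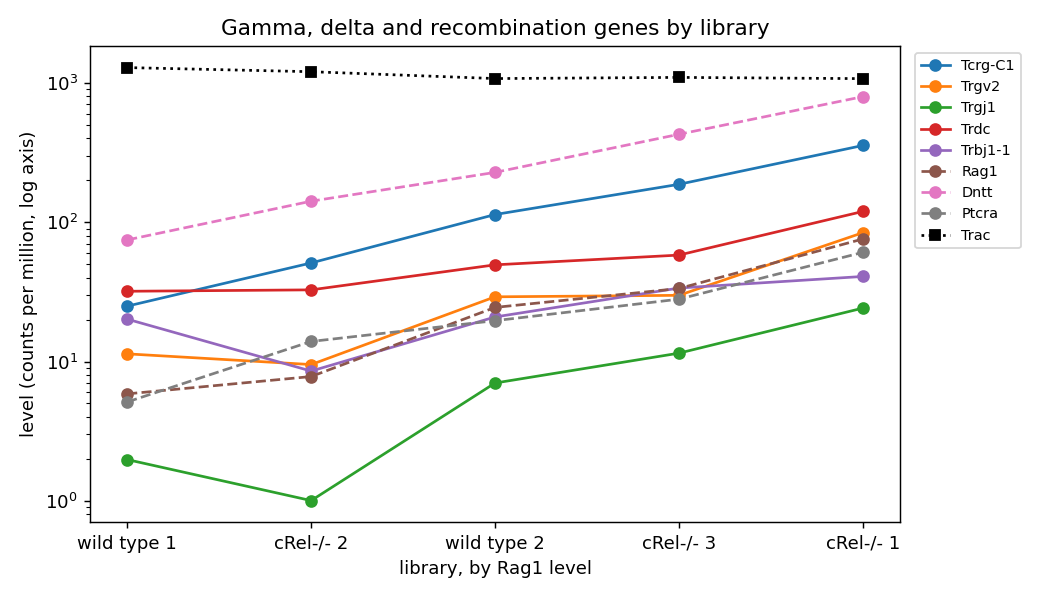
Levels in CPM on a log axis for gamma and delta genes and Trbj1-1 (solid lines), recombination and pre-T-cell genes (dashed) and Trac (dotted) in the 5 libraries, ordered by Rag1. The cRel-/- library 1 is highest in each except Trac, which stays between 1073 and 1288 CPM.

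Some genes of the recombination stage took nearly the same order. Rag1, which encodes a subunit of the recombinase, had 5.86 and 24.5 CPM in wild type and 75.7, 7.80 and 33.4 CPM in cRel-/-. Dntt, the enzyme that adds untemplated bases at the joints, had 74.6 and 227.8 CPM against 796.2, 141.5 and 427.5 CPM. Ptcra, the partner of the beta chain before an alpha chain exists, had 5.13 and 19.6 CPM against 60.7, 13.93 and 28.02 CPM. Not all of a fixed list of 11 recombination genes followed. Rag2 and Xrcc6 were also highest in cRel-/- 1, but Xrcc4 and Xrcc5 were highest in wild type 1. The 7 markers fixed for double-positive thymocytes summed to 152.9 and 384.1 CPM in wild type and 1207, 228.8 and 634.9 CPM in cRel-/-. However, Cd8a and Cd8b1, which define that stage, did not follow, with 6.22 and 4.45 against 4.09, 3.48 and 6.60 CPM and 39.3 and 29.1 against 23.8, 29.7 and 35.1 CPM. The 8 myeloid and dendritic markers summed to 5.20 and 27.1 CPM against 83.3, 10.98 and 24.75 CPM, with Csf1r at 0 in wild type 1. The 5 markers of gamma delta T cells, of which Trdc is one, summed to 45.8 and 71.9 CPM against 168.7, 73.4 and 105.2 CPM, all with positive log2 fold changes. Of the 5, 3 were higher without overlap, beside 15.3% of all genes tested, and none of them passed the test. These were Cd163l1 (5.71 and 6.13 against 14.5, 13.1 and 18.1 CPM, adjusted p = 0.524), Sox13 (4.69 and 8.54 against 18.4, 19.5 and 17.1 CPM, adjusted p = 0.552) and Blk (1.39 and 4.31 against 10.7, 5.16 and 8.51 CPM, adjusted p = 0.72). Sums of the 7 CD8 T and NK markers were 106.5 and 122.3 CPM against 122.6, 107.9 and 116.6 CPM. They ranked the libraries as the myeloid list did, over a narrower range. Erythroid markers (5 genes) summed to 6.01 and 72.6 CPM against 16.98, 10.15 and 45.39 CPM, highest in wild type 2. The 8 B and plasma cell markers summed to 153.6 and 154.6 CPM against 283.8, 225.5 and 262.0 CPM, ranked as the gamma delta list. Most of this was Ighm, and Pax5 was at 0 in 3 libraries. The 6 stromal markers summed to 192.6 to 234.8 CPM, nearly all Pecam1, with Pdgfra at 0 in every library. The part of these markers in the gamma, delta and Trbj1 values was not tested.

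The wider receptor pathway was read from a fixed list of 40 genes, all tested, of which 0 were called and 1 had an unadjusted p under 0.05. There were 26 positive and 14 negative log2 fold changes (median 0.07). Among 10 genes of the receptor complex and coreceptors 4 were positive and 6 negative: Cd3e, a signalling chain of CD3, had 846.7 and 813.1 CPM against 916.0, 1004 and 958.3 CPM, and Cd28, the costimulatory receptor, had 922.5 and 822.6 CPM against 913.7, 513.0 and 720.6 CPM. Among 8 proximal signalling genes 5 were positive, and Ptprc, the CD45 phosphatase, had 3816 and 3413 CPM against 3133, 1869 and 2852 CPM, without overlap. Of 11 recombination genes 7 were positive, and of 11 regulators of the receptor loci 10 were. In the latter group E2f1, a cell cycle transcription factor, had 35.4 and 35.8 CPM against 49.8, 83.7 and 52.4 CPM (0.81 ± 0.29 SE on the log2 scale, adjusted p = 0.72), and Tcf7, the T cell factor TCF-1, had 2155 and 1931 CPM against 2436, 2407 and 2280 CPM.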

How the data were processed

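The deposited table holds raw counts per gene that the authors had not normalized, with a gene length in bases per row. Per the submitters' processing notes, the build was GRCm38 and the tools included STAR 2.5.2, featureCounts (Subread 1.5.2) and Picard 2.9.0; the strand and multi-mapping settings were not stated. Per the labels, 2 wild-type and 3 cRel-/- libraries were compared; no label names separate animals, so a p-value reflects the spread of these libraries alone, part of which may be technical. Genotype was tested over the whole table with edgeR 4.0.16 in R 4.3.3 (quasi-likelihood F-test, TMM, Benjamini-Hochberg adjustment, threshold 0.05), after filterByExpr at min.count 10 and min.total.count 15. Adjusted p and log2 fold changes with standard errors (SE) are from this fit unless another tool is named, and the test was checked on simulated data. DESeq2 1.42.0 and limma 3.58.1 (voom) were alternatives. Usage values were compared with exact two-sided permutation tests of the means. Levels are CPM; 3 counts equal 0.1 to 0.22 CPM. Intervals are Wilson (95%). Sequences and biotypes came from GENCODE M21. Members and lists were chosen with earlier results of these data known. Named segments were all C segments, the 5 Trav, Trbv and Traj of highest mean share, up to 8 per direction by fold change whose libraries did not overlap and with at least 1 CPM in the higher group, the NKT and MAIT chain segments, the leading gamma and delta segments, and the pathway list. Others (Trbj1-1, Trbj1-2, Trbj2-6, Trbd1, Trbd2, Trgj2, Trgj4, Trbv1, Trbv16, Trbv24) and single genes of the marker and pathway lists were picked after their values were seen.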

Additional observations from a re-analysis of the deposited data

How the results depend on the processing

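Under each of the 13 alternatives run, 0 members were called. With the replicate number as a block 0 members and 77 genes were called; the numbers were not taken as pairs, since same-numbered libraries deviated against each other (correlations -0.168 and -0.158). The naming style of the library descriptions as a block called 67 genes, no filter 14 and leaving out cRel-/- library 2 called 64. Replicate number 3 occurred in cRel-/- library 3 alone, so the replicate block took that library out of the genotype contrast. With the naming style block, log2 fold changes lay close to those without cRel-/- library 2, for example 0.807 and 0.814 for Trbj1-1 and 1.02 and 1.08 for Trdc. Neither block is thus separate support beside leaving out a knockout library. Members at an unadjusted p under 0.05 numbered 12 of 162 without cRel-/- library 2, beside 1557 of 14303 genes tested. With the naming style block they were 11 of 167, beside 1376 of 14746 genes. Without cRel-/- library 1 they were 6 of 161, beside 2253 of 14279 genes. In each of these fits the share among members was below that among all genes. Of 570 alternative values of named segments, 546 kept their direction, 24 changed it and 0 passed the test. The alternative with cRel-/- library 1 halved was chosen after seeing the data.

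Leaving out each library in turn, the difference in segment level ranged from -318.8 to 216.7 CPM, in effective Trbv number from -0.42 to 0.027, in the share of Traj 2 to 20 from -3.28 to 0.47 points and in the Trbj2 share from -1.26 to 6.10 points; all 4 changed sign, and the segment level was 42.5 CPM for C segments only. The Trbc2 share (-1.61 to -1.06), the gamma and delta share (0.17 to 2.08), the pseudogene V share (0.08 to 0.10) and the effective Trav number (-1.16 to -0.0067) kept theirs. Merging the Trav copies gave an effective number difference of -1.18, and Traj segments 2 to 30 gave -2.06 points. Between libraries of matched naming style (cRel-/- 1 less wild type 1, and cRel-/- 3 less wild type 2) the Trbc2 share differed by -1.5 and -0.69 points, the gamma and delta share by 3.90 and 0.25 and the pseudogene V share by 0.10 and 0.10. The cause of the changes of sign was not tested.

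Among named segments, log2 fold changes that changed sign with the replicate block were -0.021 for Trav3-3, -0.12 for Trbj1-1, -0.053 for Trbj1-2 and -0.0085 for Trbv13-2. With the naming style block they were 0.091 for Trav1, -0.015 for Trav14-1 and -0.155 for Trav3-3, and with cRel-/- library 1 halved that of Trbc2 was -0.00062. Those that changed sign when 1 library was left out ranged from -0.224 to 0.072 for Trac, -0.286 to 0.097 for Trav1, -0.215 to 0.275 for Trav14-1, -0.282 to 0.473 for Trav14-2, -0.203 to 0.290 for Trav3-3, -0.062 to 0.066 for Trbc2, -0.053 to 0.529 for Trbj1-2, -0.014 to 0.088 for Trbv13-2, -0.110 to 0.239 for Trdv2-2 and -0.055 to 1.78 for Trgv2. Depth limits the rarer segments: 3 counts are 0.1 to 0.22 CPM, and Traj shares rest on 915 to 2328 counts.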

Other observations

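Segments too rare to be tested still carried reads in some libraries. Trdv4, a delta V segment, had 2 and 0 counts in wild type and 0, 11 and 1 in cRel-/-, so most of its reads came from cRel-/- library 2. Trgj3, the third J of its type, had 0 and 6 counts against 12 (6 once halved), 0 and 6, and was identical to Trgj1 at 54 of 60 positions. The gamma V genes outside the member rule were low apart from Tcrg-V4, which had 4.69 and 8.18 CPM in wild type and 27.2, 2.31 and 8.57 CPM in cRel-/-.

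Within the Trbv13 family, whose members are close in sequence (Trbv13-2 and Trbv13-3 were identical at 90.6% of positions), the summed share of Trbv counts was 21.1% and 21.2% in wild type and 21.9%, 23.7% and 23.5% in cRel-/-. Every knockout library lay above wild type in this share. Of its members, Trbv13-3 had 63.3 and 49.0 CPM against 50.7, 34.5 and 54.5 CPM, which overlapped, as the levels of Trbv13-2 did. The summed level of the family is not given here. The family was chosen after its values were seen and was not tested.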
